A study of Mus musculus with 21 samples.

Results

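The genes described here are those encoded by the mitochondrial genome of the mouse, recognised by gene symbols that start with mt-. Of 37 such symbols in the GENCODE M21 annotation, 13 were present among the 35598 genes of the tables, and these 13 are the protein-coding genes. The 2 ribosomal RNA and 22 transfer RNA genes were not analysed here. All 13 passed the filter on low counts, which left 13898 genes for testing.

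RNA was taken from glomeruli, the filtering units of the kidney, cut by laser from 10 µm cryosections of 21 female mice aged 3 months, with 1 library per mouse. Libraries were made with QuantSeq FWD, a kit that primes on poly(A) and reads the 3′ ends of transcripts. The study examined podocyte Epac1, an exchange factor for Rap GTPases activated by cyclic AMP, during passive glomerulonephritis. Mice homozygous for floxed Epac1 without Cre (Epac1fl/fl, called flox) were compared with littermates that carried the same alleles and a podocyte-specific Cre (called cKO). Nephritis mice had intravenous decomplemented nephrotoxic serum on 2 consecutive days and were killed on day 4 or day 11, and controls were injected with PBS. There were 3 flox and 3 cKO mice under PBS, 3 flox and 4 cKO at day 4, and 4 flox and 4 cKO at day 11. The Cre acts in podocytes alone, whereas a dissected glomerulus also holds endothelial, mesangial and parietal cells.

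The mitochondrial genome is a small circle present in many copies per cell, and its protein-coding genes all specify subunits of the oxidative phosphorylation machinery. Complexes I, III and IV pump protons out of the matrix, and complex V, the ATP synthase, lets them back to make ATP. Most of the genes are read from one strand as a long precursor, from which the mRNAs are cut out and polyadenylated, and mt-Nd6 lies on the opposite strand. In the kidney, proximal tubule cells are known for their dense mitochondria, while podocytes and endothelial cells hold fewer.

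On GRCm38 the members that recur in the results lie on the plus strand, each as a single exon: mt-Nd1 at chrM:2751-3707, mt-Co1 at chrM:5328-6872, mt-Co2 at chrM:7013-7696, mt-Atp6 at chrM:7927-8607, mt-Nd3 at chrM:9459-9806 and mt-Cytb at chrM:14145-15288. mt-Nd6 lies on the minus strand at chrM:13552-14070.

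The gene order bears on how reads can be assigned, so the 3 junctions at which protein-coding members share more than a single base are shown on the plus strand of GRCm38, with the shared bases in capitals. The first is chrM:7907-7989, the next chrM:10147-10193 and the last chrM:13532-13585.
mt-Atp8 and mt-Atp6: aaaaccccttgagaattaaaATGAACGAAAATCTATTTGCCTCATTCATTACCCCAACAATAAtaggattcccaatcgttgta
mt-Nd4l and mt-Nd4: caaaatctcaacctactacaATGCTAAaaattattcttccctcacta
mt-Nd5 and mt-Nd6: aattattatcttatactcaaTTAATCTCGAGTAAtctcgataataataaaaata
The overlap of mt-Atp8 and mt-Atp6 spans 43 bases, that of mt-Nd4l and mt-Nd4 spans 7, and that of mt-Nd5 and the antisense mt-Nd6 spans 14. The first pair and the second pair are each known to share a single mRNA. The values of mt-Atp8, which ends inside mt-Atp6, and of mt-Nd4l, which ends inside mt-Nd4, therefore depend on how shared reads were divided, a step not given in the sources used here. The strand setting is not given either, so reads of mt-Nd6 and of its antisense neighbour mt-Nd5 cannot be told apart, at least within the 14 shared bases. Reads of mt-Nd5 transcripts beyond its annotated end could also have been counted on mt-Nd6, which was not tested.

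The 3′ ends are shown because the kit reads from them. In 3 of the 13 genes the annotated coding sequence stops after the first base of a stop codon, shown in capitals, and the poly(A) tail is known to supply the missing bases. The windows are chrM:9361-9390, chrM:11515-11544 and chrM:15259-15288.
mt-Co3: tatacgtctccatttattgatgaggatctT
mt-Nd4: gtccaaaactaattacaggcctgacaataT
mt-Cytb: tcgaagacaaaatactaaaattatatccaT
The other 10 genes end in a complete stop codon. Runs of A inside a gene are a further place where an oligo(dT) primer can bind, and their length differed between members. The longest was 8 bases in mt-Nd2 (chrM:4040-4071, plus strand), and the shortest of the longest runs was 3 bases in mt-Nd6 (chrM:13994-14020, minus strand), shown with the run in capitals.
mt-Nd2: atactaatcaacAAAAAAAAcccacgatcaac
mt-Nd6: tgggttagcattAAAgccttcacctat
The run in mt-Nd2 ended 892 bases before the end of the gene. Whether reads started there was not tested, since the tables hold no positions.

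Sequencing depth was lowest at 4550550 and highest at 24295712 reads per library (median 19470098). The fewest reads were in cKO day 11 replicate 3, and genes detected ran from 7871 to 13006. The ribosomal RNA gene CT010467.1 took 17.5% to 22.6% of reads on average in 5 of the groups and 29.0% in cKO day 11 (22.2% to 39.5% over its 4 libraries). Epac1 itself (gene symbol Rapgef3) stood at 201 to 303 CPM of the unadjusted library total in flox and 68.5 to 150.1 in cKO mice under PBS, at 128 to 255 and 66.2 to 146 at day 4, and at 129 to 382 and 136 to 207 at day 11. The genotypes were apart under PBS and overlapped at both later stages, and a 3′ read need not lie in the deleted part. As a check of the labelled tissue, all 10 podocyte, 8 glomerular endothelial and 6 mesangial markers had reads in every group. The 20 proximal tubule markers did too, with a summed level between 739 and 8055 CPM of the unadjusted total.

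Together the 13 genes accounted for 2.32% of reads in the lowest library and 9.64% in the highest. In flox mice the share was 5.06%, 5.79% and 5.84% under PBS (mean 5.57% ± 0.437, SD, n = 3). At day 4 it was 8.09%, 7.55% and 7.40% (7.68% ± 0.366, n = 3), so that all 3 libraries lay above all 3 PBS libraries. At day 11 it was 7.21%, 6.88%, 2.32% and 5.45% (5.47% ± 2.23, n = 4). The low flox library at day 11, replicate 3, also had the lowest summed proximal tubule markers of all libraries (739 CPM) and a CT010467.1 share of 30.1%, and without it the mean was 6.52%.

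In cKO mice the share was 5.21%, 6.58% and 7.37% under PBS (6.39% ± 1.09, n = 3) and 7.58%, 8.63%, 9.64% and 5.25% at day 4 (7.77% ± 1.88, n = 4). At day 11 it was 4.55%, 3.51%, 3.86% and 3.67% (3.90% ± 0.456, n = 4). The 4 day 11 libraries of cKO mice all lay below every PBS and day 4 library of that genotype. With CT010467.1 left out of the denominator the group means were 7.19%, 9.46% and 6.75% in flox and 8.12%, 9.40% and 5.51% in cKO, in the order PBS, day 4 and day 11. A sum over members is a description here and carries no test. In bulk tissue, fewer cells of a type and less RNA per cell cannot be told apart.

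**Figure D1:**
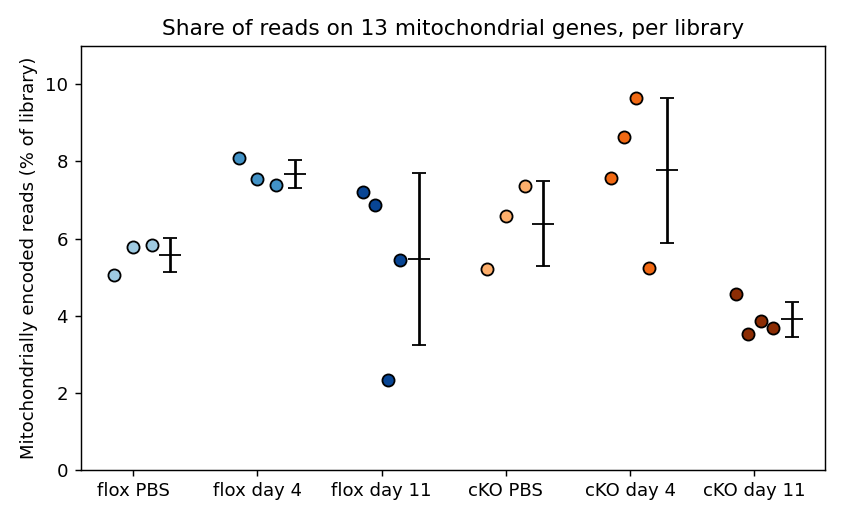
Percent of each library's reads on the 13 mitochondrial genes, by group, with 1 point per mouse and the bar beside each group showing mean ± SD. The 3 flox day 4 libraries (7.40% to 8.09%) lie above the flox PBS libraries (5.06% to 5.84%), and the 4 cKO day 11 libraries (3.51% to 4.55%) lie below the other cKO libraries.

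Levels are given in CPM, the usual depth-scaled read count, with library sizes adjusted by TMM (trimmed mean of M values) factors. By median CPM over the 21 libraries, mt-Nd4 was first at 14848, followed by mt-Nd2 at 12044, mt-Co3 at 7755, mt-Nd1 at 5772, mt-Atp6 at 5433 and mt-Cytb at 4029. Then came mt-Co2 at 3139, mt-Co1 at 2857 and mt-Nd5 at 2249.7, and far below them mt-Nd3 at 636, mt-Nd4l at 358, mt-Atp8 at 263 and mt-Nd6 at 0.806. Between the 9 most abundant and the 4 least abundant genes, only the ranges of mt-Nd3 (up to 1087) and mt-Co2 (down to 807) overlapped. The order is one of reads from a kit that reads 3′ ends, and need not be that of the transcripts. mt-Atp8 and mt-Nd4l, for instance, lie upstream of mt-Atp6 and mt-Nd4 in shared mRNAs.

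Per kilobase of gene the order was led by mt-Nd2 (median 11603 CPM per kilobase, range 6753 to 22121), mt-Nd4 (10775, range 4468 to 17128) and mt-Co3 (9892, range 4253 to 17233), whose ranges overlapped almost wholly. Next were mt-Atp6 (7978), mt-Nd1 (6032), mt-Co2 (4589) and mt-Cytb (3522). A lower tier held mt-Co1 (1849), mt-Nd3 (1827), mt-Atp8 (1287), mt-Nd5 (1233) and mt-Nd4l (1204), again with overlapping ranges between neighbours, and mt-Nd6 stood last at 1.55. Since a 3′ kit reads transcript ends whatever the length of the transcript, the per-kilobase order weighs short genes more. The deposited TPM values ranked differently: they placed mt-Atp8 first with a median of 18939 TPM, where an effective length of 10.38 bases had been applied to the shortest of the 13 genes.

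**Figure D2:**
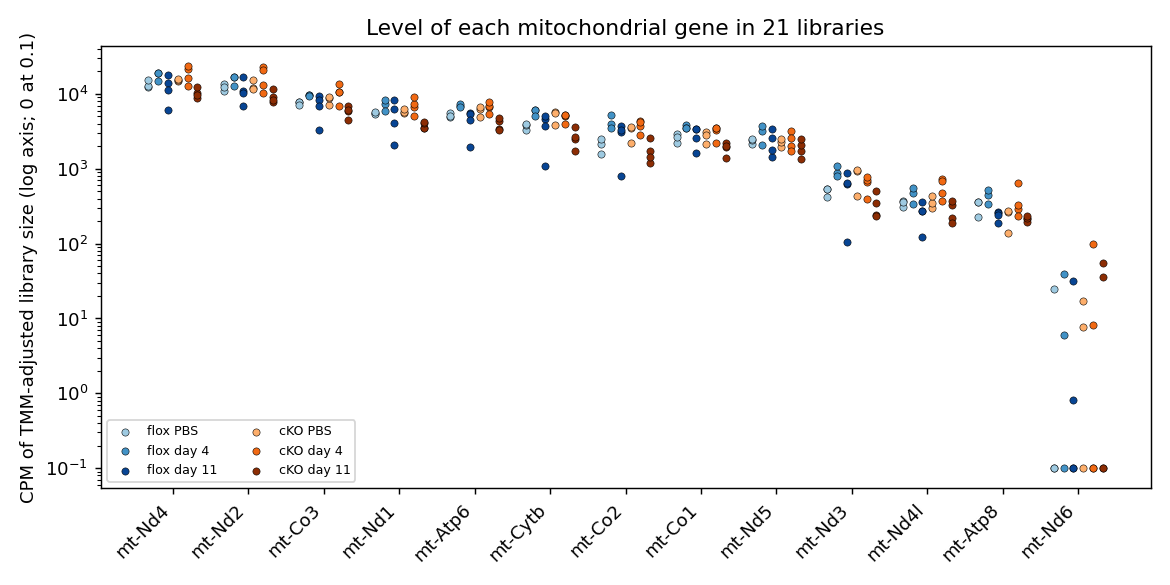
CPM of each of the 13 genes in the 21 libraries on a log axis, with 1 point per mouse coloured by group and values of 0 drawn at 0.1. Apart from mt-Nd6, at 0 in 10 libraries, each gene was read in every library, and flox day 11 replicate 3 gives the lowest point for 9 of the other 12.

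The make-up of the mitochondrial reads varied less than the levels: for all 13 genes the share of the mitochondrial reads had a lower coefficient of variation over the libraries than the CPM. The share of mt-Nd4 in these reads had a median of 23.8% (22.1% to 26.8%) and a coefficient of variation of 5.43%, against 29.4% for its CPM. The corresponding medians were 21.4% for mt-Nd2, 13.3% for mt-Co3, 9.45% for mt-Nd1, 9.19% for mt-Atp6 and 6.91% for mt-Cytb. The cytochrome oxidase genes mt-Co1 and mt-Co2 took 4.59% and 4.53%, and mt-Nd5 took 4.05%. The share of mt-Co2 varied more, from 2.94% to 7.78%, and so did that of mt-Nd3, from 0.412% to 1.62%.

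By complex, the 7 complex I genes held group means between 59.1% (flox day 4) and 61.8% (flox PBS) of the mitochondrial reads. The complex III gene held 6.23% to 7.89%, the 3 complex IV genes 21.7% to 23.7% and the 2 complex V genes 8.81% to 9.88%. The SD within a group reached 4.40 percentage points for complex I, which is larger than the whole spread of its group means.

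**Figure D3:**
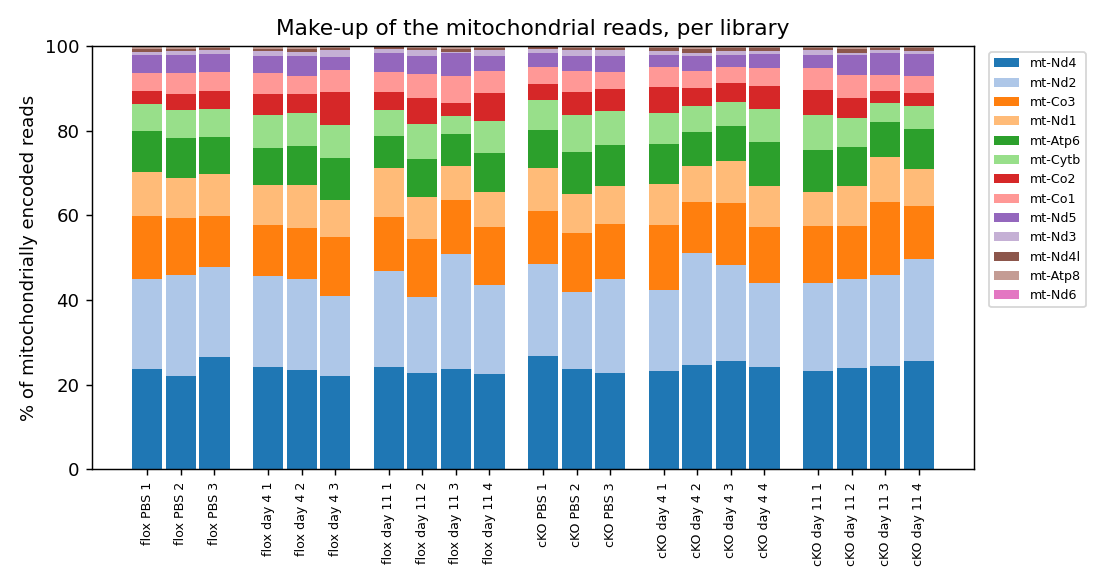
Share of each of the 13 genes in the mitochondrial reads of each library, stacked to 100%, with libraries in order of group and replicate. The bars look alike across groups, with mt-Nd4 between 22.1% and 26.8% in every library.

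Complex I takes electrons from NADH, and its core subunit mt-Nd1, which lines the quinone site, was lower in the cKO day 11 libraries than in the other cKO libraries. In flox mice mt-Nd1 stood at 5512, 5457 and 5789 CPM under PBS, at 7427, 8236 and 5882 at day 4, and at 8427, 6214, 2066 and 4036 at day 11. In cKO mice it stood at 5642, 5772 and 6230.4 CPM under PBS, at 6752, 7449.9, 9152 and 5077 at day 4, and at 3528, 3466, 4100.2 and 4271 at day 11. The cKO day 11 libraries did not overlap with the other cKO groups, whereas the flox day 11 libraries held both the highest and the lowest flox value.

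mt-Nd5, a proton-pumping subunit of the membrane arm, had the smallest fitted difference between day 11 and day 4 on average (−0.35 ± 0.17 on the log2 scale, adjusted p = 0.572 by edgeR). Its flox values were 2135, 2413 and 2464 CPM under PBS, 3185, 3745 and 2049 at day 4, and 3401, 2612, 1421 and 1778 at day 11. Its cKO values were 1938, 2249.7 and 2533 CPM under PBS, 2032, 3168, 2615 and 1750.1 at day 4, and 1351, 1721, 2095 and 2499.9 at day 11. The libraries of mt-Nd5 overlapped in each comparison of 2 groups.

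mt-Nd6 was read in 11 of the 21 libraries, with 19 to 1276 reads, and had 0 reads in the other 10. In flox mice it stood at 0, 24.7 and 0 CPM under PBS, at 39.9, 5.96 and 0 at day 4, and at 0, 0.806, 31.6 and 0 at day 11. In cKO mice it stood at 0, 7.68 and 17.1 CPM under PBS, at 8.20, 0, 98.1 and 0 at day 4, and at 35.8, 54.4, 0 and 0 at day 11. Each group held both libraries with reads and libraries with none. A count of 0 allows up to 3 reads, which is 0.134 to 0.659 CPM of the unadjusted library total in those 10 libraries and covers counting error only. The scatter left a tagwise biological coefficient of variation of 2.54, the highest of the members, against 0.304 for the lowest.

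The remaining complex I genes are given by their ranges. In flox mice mt-Nd4 ran from 12319 to 15523 CPM under PBS and from 14848 to 19012 at day 4, and in cKO mice from 12605 to 23603 at day 4 and from 8791 to 12515 at day 11. mt-Nd2 ran from 10340.0 to 22962 CPM in cKO day 4 and from 7709 to 11772 in cKO day 11. mt-Nd3, a small subunit near the quinone site, ran from 416 to 533 CPM in flox PBS, 799 to 1087 in flox day 4, 395 to 783 in cKO day 4 and 235 to 499 in cKO day 11. mt-Nd4l ran from 336 to 557 CPM in flox day 4 and from 123 to 365 in flox day 11. For mt-Nd3 the flox libraries under PBS and at day 4 did not overlap, and for mt-Nd4 the cKO libraries at day 4 and day 11 did not, whereas mt-Nd2 and mt-Nd4l overlapped.

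mt-Cytb, the only complex III subunit that mitochondria encode, stood in flox mice at 3334, 3841 and 3908 CPM under PBS, at 6062, 6184 and 5153 at day 4, and at 4573, 5135, 1089.5 and 3739 at day 11. In cKO mice it stood at 3849.9, 5653 and 5488 CPM under PBS, at 5119, 5277, 5186 and 4029 at day 4, and at 3650.1, 2502, 1722 and 2653 at day 11. The day 4 flox libraries lay above the other flox libraries, and the day 11 cKO libraries lay below the other cKO libraries.

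In complex IV, cytochrome c oxidase, the catalytic subunit mt-Co1 stood in flox mice at 2184, 2935 and 2647 CPM under PBS, at 3884, 3545 and 3504 at day 4, and at 3373, 3396, 1618 and 2619 at day 11. In cKO mice it stood at 2158, 3123 and 2857 CPM under PBS, at 3251, 3501, 3522 and 2181 at day 4, and at 2239, 1978, 1409 and 2009 at day 11. For mt-Co1 the flox day 4 libraries lay above all other flox libraries, while in cKO the day 4 and day 11 libraries overlapped between 2181 and 2239.

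mt-Co2, which receives electrons from cytochrome c, had the largest fitted differences of the 9 most abundant genes at day 4 against PBS and at day 11 against day 4 when averaged over the genotypes. Its flox values were 1588, 2129 and 2469 CPM under PBS, 3921, 3541 and 5226 at day 4, and 3139, 3768, 807 and 3260.0 at day 11. Its cKO values were 2210.1, 3511 and 3578 CPM under PBS, 4418, 3684, 4188 and 2871 at day 4, and 2610.2, 1729, 1185 and 1442 at day 11. The flox groups under PBS and at day 4 did not overlap, nor did the cKO groups at day 4 and day 11. mt-Co3 ran from 6943 to 13511 CPM in cKO day 4 and from 4544 to 6809.6 in cKO day 11.

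In complex V, mt-Atp6, the subunit through which protons pass, stood in flox mice at 4991, 5545 and 5014 CPM under PBS, at 6913, 7319 and 6694 at day 4, and at 5601, 5433, 1968 and 4545 at day 11. In cKO mice it stood at 4983, 6346 and 6745 CPM under PBS, at 6609, 6912, 7751 and 5380.5 at day 4, and at 4340.3, 3425, 3298 and 4724 at day 11. The day 11 libraries lay below all day 4 libraries in both genotypes. mt-Atp8 ran from 337 to 521 CPM in flox day 4 and from 187 to 267 in flox day 11.

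All 13 genes were lower at day 11 than at day 4 when averaged over the genotypes, with a median log2 fold change of −0.68 against 0.07 over all 13898 genes, but none was called. mt-Atp6 had the smallest p, with a log2 fold change of −0.71 ± 0.15 (SE, 95% interval −1.02 to −0.40, unadjusted p = 3.4e-05) and an adjusted p of 0.159 by edgeR's quasi-likelihood test with Benjamini-Hochberg adjustment over all genes. The other fold changes ran from −0.93 for mt-Nd4l to −0.35 for mt-Nd5. An unadjusted p under 0.05 with a lower level was reached by 12 of the 13 members, all but mt-Nd6, and by 3.47% of all tested genes. The members share their libraries, and most share a precursor, so they are not independent observations. These 12 had biological coefficients of variation of 0.304 to 0.479, against a common value of 1.66, so the share over all genes is not one of like genes. Both limits hold for every count of members given here. At an adjusted p under 0.05 the share of all genes called was 0%.

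The same comparison within each genotype was added after these data had been seen. In cKO mice the 13 genes were all lower at day 11, with a median of −0.85 against 0.06 over all genes, and 11 of the 13 had an unadjusted p under 0.05 against 3.78% of all genes in that direction. mt-Atp6 was again first (−0.76 ± 0.20, adjusted p = 0.465 by edgeR), and mt-Co2 had the largest difference (−1.12 ± 0.34). The cKO day 11 libraries lay wholly below the day 4 libraries for 6 members (mt-Nd1, mt-Co2, mt-Atp6, mt-Co3, mt-Nd4 and mt-Cytb), as they did for 1.31% of all genes.

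In flox mice the 13 genes were also all lower, with a median of −0.62 against 0 over all genes, and 3 members had an unadjusted p under 0.05 against 2.5% of all genes in that direction. mt-Atp6 differed by −0.67 ± 0.21 (adjusted p = 0.963 by edgeR). The groups did not overlap for 4 members (mt-Co1, mt-Atp8, mt-Atp6 and mt-Cytb), against 2.94% of all genes. No member was called in either genotype, where 0% of all genes were called. DESeq2 called 10 members lower on average over the genotypes (smallest adjusted p = 0.000924, with 7.45% of all genes called) and 9 in cKO (6.99% of all genes called). Without flox day 11 replicate 3, edgeR called 6 members lower in cKO (smallest adjusted p = 0.0141, with 0.0796% of all genes called), and the flox median was −0.29. Without flox day 11 replicate 1 it called mt-Atp6 and mt-Nd1 on average (smallest adjusted p = 0.0443, with 0.0289% of all genes called). With the share of CT010467.1 as a covariate, added after these data had been seen, the cKO median was −0.43 and mt-Atp6 −0.40.

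Day 4 against PBS went the other way. On average over the genotypes all 13 genes had higher levels, and their median log2 fold change was 0.33 against 0.01 over all genes, and 4 members had an unadjusted p under 0.05 against 5.36% of all genes that were higher. mt-Co2 had the smallest p, at 0.66 ± 0.27 (95% interval 0.09 to 1.23, adjusted p = 0.430 by edgeR). None of the 13 was called, against 0.0216% of all genes. In flox mice the median was 0.43, 2 members had an unadjusted p under 0.05 against 5.55% of all genes that were higher, and mt-Co2 differed by 1.04 ± 0.39 (adjusted p = 0.592 by edgeR). The flox day 4 libraries lay wholly above the PBS libraries for 7 members, mt-Nd1, mt-Co1, mt-Co2, mt-Atp6, mt-Co3, mt-Nd3 and mt-Cytb, as they did for 6.81% of all genes. In cKO mice 11 of 13 were higher (median 0.28). mt-Atp8 alone had an unadjusted p under 0.05 (0.74 ± 0.35, adjusted p = 0.598 by edgeR), against 2.21% of all genes that were higher. Every member overlapped between the groups. Of all genes, 1.37% lay wholly higher and 4.76% wholly lower at day 4 than under PBS in cKO mice. Without cKO day 4 replicate 3 the cKO median was 0.13, and without cKO day 4 replicate 2 the value of mt-Atp8 was 0.34. No member was called within either genotype by edgeR, with 0% of all genes called. DESeq2 called no member in any comparison with PBS, where it called 4.91% to 9.63% of all genes.

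**Figure D4:**
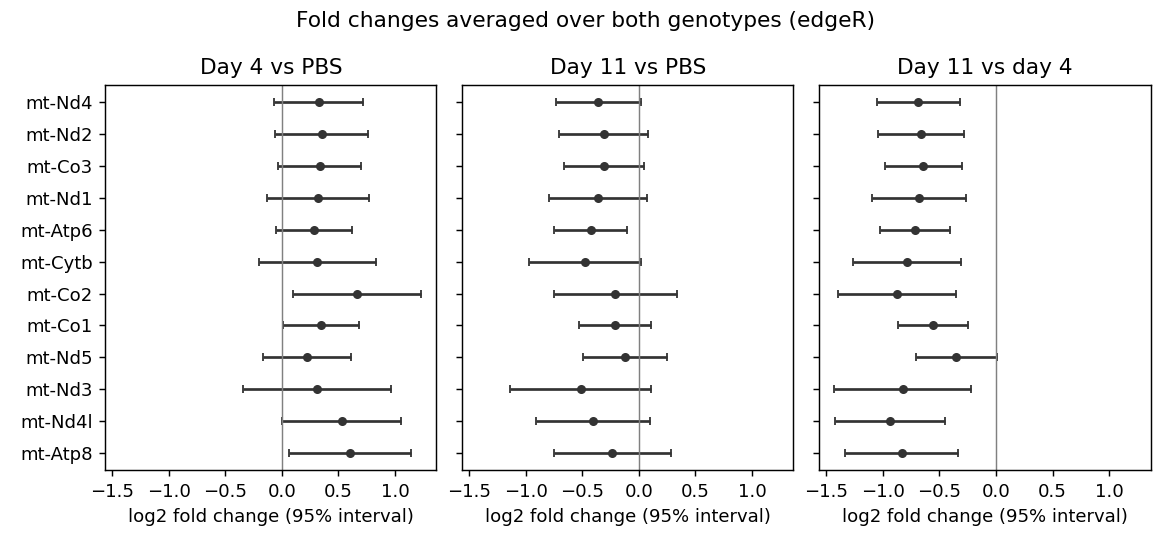
Log2 fold changes of 12 genes with 95% intervals from 15 residual degrees of freedom, averaged over the genotypes, for day 4 against PBS, day 11 against PBS and day 11 against day 4. mt-Nd6 is left out because its intervals span several units; all 12 points lie right of 0 at day 4 against PBS and left of 0 at day 11 against day 4, and the 3 panels share groups.

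At day 11 against PBS the average over the genotypes was lower for 12 of 13 members, with a median of −0.31 against 0.07 over all genes, and mt-Atp6 was first at −0.43 ± 0.15 (95% interval −0.75 to −0.10, adjusted p = 0.342 by edgeR). It was the only member with an unadjusted p under 0.05, against 2.94% of all genes that were lower. None was called, against 0.122% of all genes. In cKO mice 12 of 13 were lower (median −0.51 against −0.03 over all genes), and 8 had an unadjusted p under 0.05, against 3.42% of all genes that were lower. mt-Nd3 led with −1.23 ± 0.41 (adjusted p = 0.805 by edgeR), and for 5 members, mt-Nd1, mt-Atp6, mt-Co3, mt-Nd4 and mt-Cytb, the day 11 libraries lay wholly below PBS, as for 4.03% of all genes. The share of all genes called in cKO was 0.0504%. mt-Cytb was called there once flox day 11 replicate 3 was left out of the shared fit (adjusted p = 0.0415 by edgeR, with 0.0507% of all genes called). With the proximal tubule markers as a covariate the cKO median was −0.18 and mt-Nd3 −0.60, and with the CT010467.1 share they were −0.29 and −0.55. Other markers were lower in this comparison too: 1 of 20 proximal tubule markers lay above 0 (median −0.72), 2 of 12 distal nephron markers (median −1.10) and 0 of 6 erythrocyte markers (median −2.70, 4 with an unadjusted p under 0.05). The podocyte marker Thsd7a was called lower (−2.07 ± 0.29, adjusted p = 0.000638 by edgeR). Summed podocyte markers ran from 7391 to 8027 CPM of the unadjusted total in cKO PBS and from 2713 to 6283 in cKO day 11. Endothelial markers ran from 4759 to 6311 and from 2161 to 4917 in the same groups. Macrophage markers were higher, at 200 to 277 and 326 to 511. Parietal markers stood at 29.9 to 87.3 and 76.0 to 250, and mesangial markers at 2082 to 2649 and 1356 to 3994. The part of RNA from any of these cell types in the result was not tested.

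In flox mice at day 11 the median against PBS was −0.11, 10 of 13 members were lower, and mt-Nd4l had the smallest p (−0.43 ± 0.33, adjusted p = 0.894 by edgeR, with 0% of all genes called). No member had an unadjusted p under 0.05, against 8.25% of all genes, and all 13 overlapped between the groups. Of all genes, 3.86% lay wholly higher and 2.53% wholly lower at day 11 than under PBS. Without flox day 11 replicate 3 the median was 0.14.

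No member was called between the genotypes, by edgeR or by DESeq2. DESeq2 called 3.8% to 7.17% of all genes in these comparisons. Averaged over the stages, mt-Co1 came first with −0.23 ± 0.12 for cKO against flox (95% interval −0.49 to 0.03, adjusted p = 0.829 by edgeR), and the median over the members was −0.08, with 0.0072% of all genes called. The 95% interval for mt-Atp6 ran from −0.26 to 0.26. An unadjusted p under 0.05 was reached by 0 members on average, under PBS and at day 4, against 6.62%, 6.02% and 7.42% of all genes, and by mt-Co1 alone at day 11, against 3.14% of all genes that were lower. Under PBS mt-Co2 was first at 0.59 ± 0.39 (adjusted p = 0.922), at day 4 mt-Nd5 at −0.32 ± 0.25 (adjusted p = 1), and at day 11 mt-Co1 at −0.53 ± 0.20 (95% interval −0.95 to −0.11, adjusted p = 0.839), all by edgeR with 0% of all genes called. For mt-Nd3 at day 4 the 4 cKO libraries lay wholly below the 3 flox libraries, as for 3.37% of all genes. With the CT010467.1 share as a covariate, the median over the members was 0.03 on average and 0.09 at day 11, and mt-Co1 at day 11 was −0.24. These comparisons share their libraries with those between the stages.

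The difference between the genotypes in the response to serum was tested as an interaction, and mt-Nd3 had the smallest p at both stages. It was −1.20 ± 0.61 at day 4 (adjusted p = 0.674) and −1.43 ± 0.59 at day 11 (95% interval −2.69 to −0.16, adjusted p = 0.667), by edgeR with 0% of all genes called at either stage. At day 11 mt-Co2 had −1.24 ± 0.51 (adjusted p = 0.670), and 10 of 13 members lay below 0 (median −0.40 against −0.20 over all genes). An unadjusted p under 0.05 was reached by 0 members at day 4, against 7.74% of all genes, and by mt-Nd3 and mt-Co2 at day 11, against 5.1% of all genes with a negative interaction. DESeq2 called no member at either stage, against 8.54% of all genes at day 4 and 7.29% at day 11. The flox day 11 group with its low library enters the contrast at day 11, where the median was −0.65 without that library and −0.19 without flox day 11 replicate 1. With the proximal tubule covariate that median was −0.06 and mt-Nd3 −0.74, and with the CT010467.1 share mt-Nd3 was −0.25.

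Proximal tubule markers moved with the mitochondrial genes. In the comparison of day 11 with day 4 averaged over genotypes, all 20 markers were lower with a median of −0.85, led by Kap, an androgen-regulated gene of these cells (−3.24 ± 0.85), and Slc13a3, a dicarboxylate transporter (−1.54 ± 0.52), each with an adjusted p of 0.382 by edgeR. Of the 20, 7 had an unadjusted p under 0.05, against 3.47% of all genes with that p and a lower level. The 12 markers of thick ascending limb, distal tubule and collecting duct were also all lower (median −1.18, 6 with an unadjusted p under 0.05), and 2 of 10 podocyte markers lay above 0 (median −0.27), with 3 at an unadjusted p under 0.05 and a lower level. Of the 8 endothelial markers 6 lay above 0 (median 0.20), and 1 had an unadjusted p under 0.05 with a lower level. The summed proximal tubule level ran from 2890.2 to 8055 CPM in cKO day 4 and from 1577 to 2752 in cKO day 11, and from 3062 to 6720.0 in flox day 4 and 739 to 4560.4 in flox day 11. With the content of these markers as a covariate, the median of the 13 members was −0.31 in place of −0.68, and mt-Atp6 was −0.36 in place of −0.71. In flox day 4 against PBS the median was 0.0032 in place of 0.43. In flox day 11 against day 4 it was −0.11 in place of −0.62, and in cKO −0.54 in place of −0.85. The proximal tubule markers differed between the stages themselves, so with this covariate tubule content and stage cannot be told apart. The part of proximal or distal tubule RNA in these differences was not tested.

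**Figure D5:**
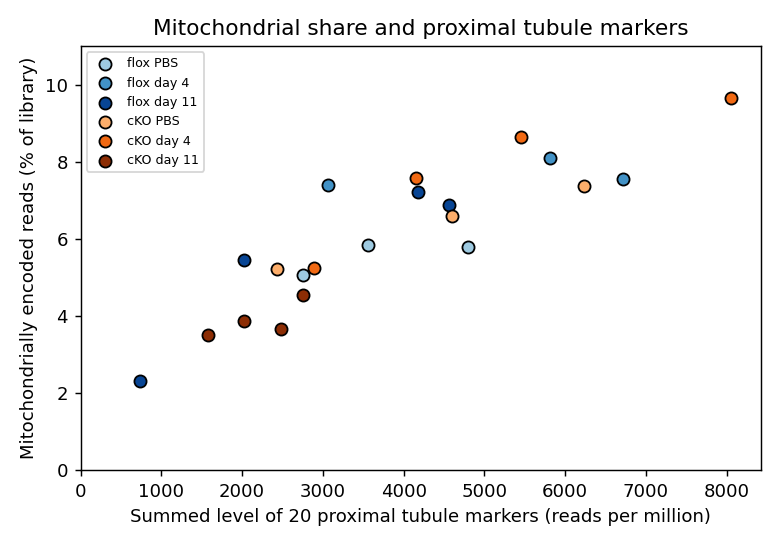
Percent of each library's reads on the 13 mitochondrial genes (vertical axis) against the summed level of 20 proximal tubule markers in CPM (horizontal axis), 1 point per mouse, coloured by group. Flox day 11 replicate 3 is lowest on both axes (2.32%, 739) and cKO day 4 replicate 3 is highest on both (9.64%, 8055).

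The nuclear genome encodes the other subunits of the same complexes, and they lay mostly in the same direction. Of 77 tested nuclear respiratory chain genes, 10 lay above 0 at day 11 against day 4 on average, with a median of −0.51. An unadjusted p under 0.05 with a lower level was reached by 21 of them, against 3.47% of all genes, but none was called. Atp5b, the catalytic beta subunit of the ATP synthase, had the smallest p (adjusted p = 0.356 by edgeR), and within cKO it differed by −1.32 ± 0.34 (adjusted p = 0.456). Atp5k, a small subunit of that enzyme, differed by −0.79 ± 0.22 on average (adjusted p = 0.382). At day 4 against PBS, 64 of the 77 lay above 0 with a median of 0.37, led by Cox8a (0.61 ± 0.18, adjusted p = 0.376 by edgeR), a subunit of cytochrome c oxidase.

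The lists of genes that make, handle and translate the mitochondrial transcripts had 0 genes called. Of 77 tested mitochondrial ribosome genes, 34 lay above 0 at day 11 against day 4 (median −0.13), and none was called. Of the 9 tested genes of mitochondrial DNA transcription 3 lay above 0 (median −0.53), with Mterf3 and Mterf1a, members of the transcription termination factor family, at the smallest p and on either side of 0. Of 19 tested genes of mitochondrial RNA processing 8 lay above 0 (median −0.15), and Lrpprc, which stabilises mitochondrial mRNAs, had −0.97 ± 0.89 (adjusted p = 0.990 by edgeR). Of 9 replication genes 6 and of 6 biogenesis regulators 1 lay above 0, with medians of 0.95 and −1.12, and none was called in either list.

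Near-identical nuclear copies of mitochondrial sequence could share reads with members. On chromosome 1, between positions 24611535 and 24616197 of GRCm38, 6 annotated pseudogenes match mt-Atp6, mt-Co3, mt-Nd4 and mt-Co2 at 100% identity and mt-Nd3 and mt-Co1 at 99.7% and 99.8%. The match covered 876 bases of mt-Nd4 and 483 bases of mt-Co1, which are 1378 and 1545 bases long. These 6 copies were not analysed here. The 6 members matched by these pseudogenes had a median of −0.70 at day 11 against day 4, and the 6 others (mt-Nd6 left out) had −0.73. Only these 6 pseudogenes were searched, so the other members may have nuclear copies as well. The part of nuclear copies in the values was not tested.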

How the data were processed

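Per the file headers, the deposited tables give estimated counts (NumReads) and TPM for each gene and library. The submitters' processing notes name FastQC, fastp, DRAGEN, Picard and mm10. No role, version, annotation or strand setting is given there. Of 35598 IDs, 35513 matched a GENCODE M21 symbol and 85 did not. Of the 273 member values, 265 were whole numbers within 0.005, and counts were rounded.

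The rounded counts were fitted with edgeR 4.0.16 (R 4.3.3), TMM scaling, filterByExpr with a minimum count of 10, and robust quasi-likelihood tests on the means of 6 groups over 21 libraries, with 15 residual degrees of freedom. A gene counted as called where its p, adjusted by Benjamini-Hochberg over 13898 genes, was under 0.05. TMM factors lay between 0.751 and 1.12, with a common biological coefficient of variation of 1.66. The deposited TPM values were used only for the order of levels. Sequences were read from the GENCODE M21 transcripts. The fit was also run on simulated counts with known changes in cKO day 11 against PBS alone. Those changes were larger than the members' fold changes, so whether changes of the members' size would be called was not tested.

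The members and gene lists were chosen with earlier results of these data known. Fold changes are given for the member with the smallest p in each comparison and the first genes of the other lists; mt-Co2, mt-Nd5 and the ends of ranges were added after their values were seen. Alternatives used DESeq2 1.42.0 and limma 3.58.1. Comparisons that share groups are not independent.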

Additional observations from a re-analysis of the deposited data

Results flagged for a closer look

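Within groups of 4 libraries, 42 sets of values were checked for a library far from the others, and chance gives about 1 in 20 such sets. In 3 sets a single library stood apart. mt-Nd6 in cKO day 4 replicate 3 was at 98.1 CPM, against 8.20 CPM or less in the other 3. mt-Nd6 in flox day 11 replicate 3 was at 31.6 CPM, against 0.806 CPM or less in the other 3. mt-Cytb in cKO day 4 replicate 4 was at 4029 CPM, below the 5119 to 5277 CPM of the other 3.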

How the results depend on the processing

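Of 1599 values recomputed under 36 alternative settings, 1576 stayed within the limits set for them. The fold change of the member with the smallest p did not reverse in any comparison. Members named for other reasons were not followed in this way. A median counted as unchanged if it moved by less than 0.358 on the log2 scale, the spread between libraries. Some main medians are smaller than that, so a median could change sign and still count. That of cKO against flox at day 11 did so, from −0.27 to 0.09 with the CT010467.1 share as a covariate, and that averaged over stages went from −0.08 to 0.03. With the proximal tubule covariate, cKO against flox went from 0.08 to −0.15 under PBS and from −0.07 to 0.09 at day 4. The interaction at day 4 went from −0.10 to 0.26 with it. Flox day 11 against PBS went from −0.11 to 0.14 without flox day 11 replicate 3. The 1576 is therefore no measure of how firm the medians are. Averaged over genotypes, the day 11 against day 4 difference of mt-Atp6 ran from −0.78 to −0.36 with adjusted p from 0.000924 to 0.817. DESeq2 called 10 members there and 9 in cKO; limma-trend, added later, called 0 in every comparison. Leaving out 1 library in turn gave 0 to 2 called members on average (mt-Atp6 and mt-Nd1 without flox day 11 replicate 1), 0 to 6 in cKO day 11 against day 4 and 0 to 1 in cKO day 11 against PBS, both highest without flox day 11 replicate 3. Without that library and cKO day 11 replicate 3 together, 1 member (mt-Co3) was called in cKO day 11 against day 4, with 0.0291% of all genes called. Voom with quality weights called 1 member in flox day 11 against PBS (mt-Cytb, 0.187% of all genes called), 1 in cKO day 4 against PBS (mt-Co2, 0.259%), 2 between genotypes at day 4 (mt-Co1 and mt-Co2, 0.0576%) and 1 at day 11 (mt-Nd1, 0.0935%). There, the weights of a gene differed between libraries by 68091-fold in the median member and by 4.93-fold over all genes. With the proximal tubule covariate the medians were 0.0032 in flox day 4 against PBS, −0.31 and −0.11 in day 11 against day 4 on average and in flox, and 0.26 for the interaction at day 4; with the share of CT010467.1 as covariate, added later, the median of cKO day 11 against day 4 was −0.43. The proximal tubule covariate also took the average medians to 0.18 for day 4 and −0.17 for day 11 against PBS, and mt-Atp6 at day 11 against PBS to −0.24; the CT010467.1 share took mt-Co2 at day 4 against PBS to 0.26 on average. Without CT010467.1 in the denominator the mitochondrial share was 7.19% in flox PBS, 8.12% in cKO PBS, 9.46% in flox day 4 and 5.51% in cKO day 11. Leaving out 1 library moved the mean share of flox day 11 between 4.88% and 6.52%. Median-ratio scaling put the member median at 0.06 for the interaction at day 4. Library totals alone moved the median of all genes by up to −0.17. Replicate numbers did not pair the libraries (48 same-number pairs, r from −0.0511 to 0.03); with a replicate block the day 11 against day 4 median was −0.73, and 0 members were called in every comparison. Leaving out ribosomal RNA members and keeping protein-coding members alone changed nothing, since all 13 are protein-coding, and adding nuclear copies was not run. The cause of these shifts was not tested, also where a covariate was used. Depth limits precision most in cKO day 11 replicate 3, with 4550550 reads in all.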
